A study of Mus musculus with 47 samples.

Results

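The tissue inhibitors of metalloproteinases and 5 of the proteases that act on extracellular matrix were examined in the hypothalamus of mice given a single intracerebroventricular (icv) injection of FGF1. The genes were the 4 inhibitors Timp1, Timp2, Timp3 and Timp4, the 2 matrix metalloproteinases Mmp2 and Mmp14, and the 3 ADAMTS proteases Adamts1, Adamts4 and Adamts9, which are 9 of the 14221 genes in the count table. They were picked by symbol after earlier results of these data were known, because Timp1 had the highest fold change of all genes on Day 1, so the Day 1 difference is given for these 9 genes as a description and not as a test. All 9 were kept by the filter on low counts.

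All 47 mice were male ob/ob animals, which lack functional leptin, and their labels give an age of 11 weeks. FGF1-treated mice received 3 µg of human recombinant FGF1 icv and were killed 1 day (n = 10), 5 days (n = 9) or 42 days (n = 5) later. The icv vehicle was given to mice labelled non-diabetic and pair-fed to FGF1 on Day 1 (n = 4), Day 5 (n = 7) and Day 42 (n = 5), and to a further 7 mice of Day 5 labelled diabetic and pair-fed. The study's methods count 7 vehicle-treated mice on Day 5 where the labels list 14, so both vehicle groups of that day are given. Each library came from 1 mouse and the mice of each day were separate animals. All libraries of a day carry 1 code of their own in a column headed prep, which is not explained further, so that this code and day cannot be told apart. FGF1 was set against vehicle only among libraries of the same code.

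The libraries held between 1243280 and 47082403 counts. FGF1 replicate 17 of Day 1 was the shallowest, and on Day 5, where the other libraries held between 7579695 and 12451642 counts, FGF1 replicates US-1642330 and US-1642331 held 30009258 and 27922117. All 10 hypothalamic marker genes examined, among them Agrp, Pomc, Avp, Oxt and Hcrt, had counts in every library. Levels are given as normalized counts, that is CPM scaled by the TMM library factors. In bulk tissue, fewer cells of a type and less RNA per cell cannot be told apart.

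Extracellular matrix is cut by secreted and membrane-bound zinc proteases. Matrix metalloproteinases degrade collagens and many other substrates, and ADAMTS proteases cut proteoglycans such as the lecticans that fill the space between neurons and glia. TIMPs bind to the active site of matrix metalloproteinases and block it, and Timp3 also inhibits ADAMTS proteases. In the brain, Timp1 is known as an inhibitor that astrocytes and other cells switch on after injury or inflammation. Timp2, Timp3 and Timp4 are made constitutively there.

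The genes Timp1, Timp3 and Timp4 lie inside genes of the synapsin family, on the opposite strand. In GENCODE M21 on GRCm38, Timp1 lies on chromosome X from 20870166 to 20874735 (plus strand) within Syn1 and shares no exon base with it. Timp3 lies on chromosome 10 from 86300372 to 86349506 (plus strand) within Syn3, and 21.3% of its exon bases also belong to a Syn3 exon. Timp4 lies on chromosome 6 from 115241892 to 115252205 (minus strand) within Syn2, with 1.53% of its exon bases shared. Timp2 lies on chromosome 11 from 118301069 to 118355740 (minus strand) and overlaps Cep295nl without sharing an exon base. Of the proteases, Adamts9 shares exon bases with 2 genes on the other strand that are not in the count table. The library kit was strand-specific, but the strand setting of the counting is not given in the sources used here, so reads from these shared stretches cannot be assigned with certainty.

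The 250 bases before the RefSeq start of the 4 inhibitor genes are shown because these 4 members of 1 family differed most in their response. They are RefSeq sequences on GRCm38.p6, printed 5′ to 3′ on the strand of the gene, at chrX:20869916-20870165 (plus strand) for Timp1, chr11:118355412-118355661 (minus strand) for Timp2, chr10:86300162-86300411 (plus strand) for Timp3 and chr6:115252206-115252455 (minus strand) for Timp4. The RefSeq and GENCODE starts differ for 2 of these genes, so that all 250 bases of the Timp2 window and 40 bases of the Timp3 window lie inside the GENCODE gene given above. Capitals mark matches to the SP1 motif on either strand.
Timp1: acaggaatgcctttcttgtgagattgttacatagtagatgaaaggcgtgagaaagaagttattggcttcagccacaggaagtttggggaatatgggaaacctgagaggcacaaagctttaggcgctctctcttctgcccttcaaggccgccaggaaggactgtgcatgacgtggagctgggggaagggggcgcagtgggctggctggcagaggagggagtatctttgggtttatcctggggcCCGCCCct
Timp2: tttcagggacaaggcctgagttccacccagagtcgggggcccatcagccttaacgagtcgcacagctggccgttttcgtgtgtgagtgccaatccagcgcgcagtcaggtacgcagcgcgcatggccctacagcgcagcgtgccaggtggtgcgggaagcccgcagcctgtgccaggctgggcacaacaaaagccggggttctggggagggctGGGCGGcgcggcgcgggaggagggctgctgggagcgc
Timp3: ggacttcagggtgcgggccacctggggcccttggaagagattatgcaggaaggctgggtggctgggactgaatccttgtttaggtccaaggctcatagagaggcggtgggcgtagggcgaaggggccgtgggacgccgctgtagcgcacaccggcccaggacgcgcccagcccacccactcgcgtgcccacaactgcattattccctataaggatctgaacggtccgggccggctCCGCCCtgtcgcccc
Timp4: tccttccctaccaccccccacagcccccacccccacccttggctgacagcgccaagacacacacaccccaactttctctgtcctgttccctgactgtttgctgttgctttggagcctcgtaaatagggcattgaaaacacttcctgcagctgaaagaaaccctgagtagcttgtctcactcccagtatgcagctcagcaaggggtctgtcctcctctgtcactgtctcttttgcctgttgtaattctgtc
Of the 9 genes, 7 had an entry in the promoter table, and Mmp2 and Adamts4 had none. Searched on both strands, the SP1 motif (GGGCGG) was found before 6 of the 7 starts, all but that of Timp4, and in 32.7% of 32851 promoters of the same length. None of the 7 held the AP-1 motif (TGANTCA), present in 6.75% of all promoters, the CRE motif (TGACGTCA, 1.55%), the STAT motif (TTCNNNGAA, 7.02%), the NF-kB motif (4.11%) or the GRE motif (0.00913%). This says only that these letters are not in these windows.

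To compare levels between genes, normalized counts were divided by the length of the exons. In the 4 vehicle-treated mice of Day 1, Timp2 was the most abundant of the 9 genes at 233.9 ± 17.2 normalized counts per kb (SD, n = 4), followed by Timp3 at 50.3 ± 13 and Timp4 at 12.95 ± 0.417. The proteases lay lower, with Mmp14 at 3.74 ± 0.936, Adamts4 at 2.99 ± 0.524, Adamts1 at 2.37 ± 0.415 and Mmp2 at 1.41 ± 0.0704. Timp1 stood eighth at 0.952 ± 0.138, and Adamts9 was lowest at 0.485 ± 0.0861. The ranges over mice of Mmp14 and Adamts4 overlapped, as did those of Adamts4 and Adamts1, so these neighbours in the order did not differ beyond their spread. Timp2, Timp3 and Timp4 kept the first 3 places in both vehicle groups and in the FGF1 group of Day 5, and in both groups of Day 42.

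In the FGF1-treated mice of Day 1 this order was different. Timp1 stood second at 178.6 ± 101.2 normalized counts per kb (SD, n = 10), and its range from 68.8 to 345.6 overlapped that of Timp2, from 179.1 to 218.2. As a share of the summed level of the 4 inhibitors per kb, Timp1 ran from 0.277% to 0.360% in vehicle-treated mice and from 23.3% to 58.4% in FGF1-treated mice of Day 1. Timp2 made up from 72.5% to 82.4% and from 33.5% to 62.8%, respectively. On Day 5, the Timp1 share ran from 2.17% to 3.97% in FGF1-treated mice, from 0.494% to 1.66% in vehicle-treated mice labelled non-diabetic and from 0.793% to 1.25% in those labelled diabetic. On Day 42, it ran from 0.312% to 0.651% with FGF1 and from 0.162% to 0.458% with vehicle.

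**Figure D1:**
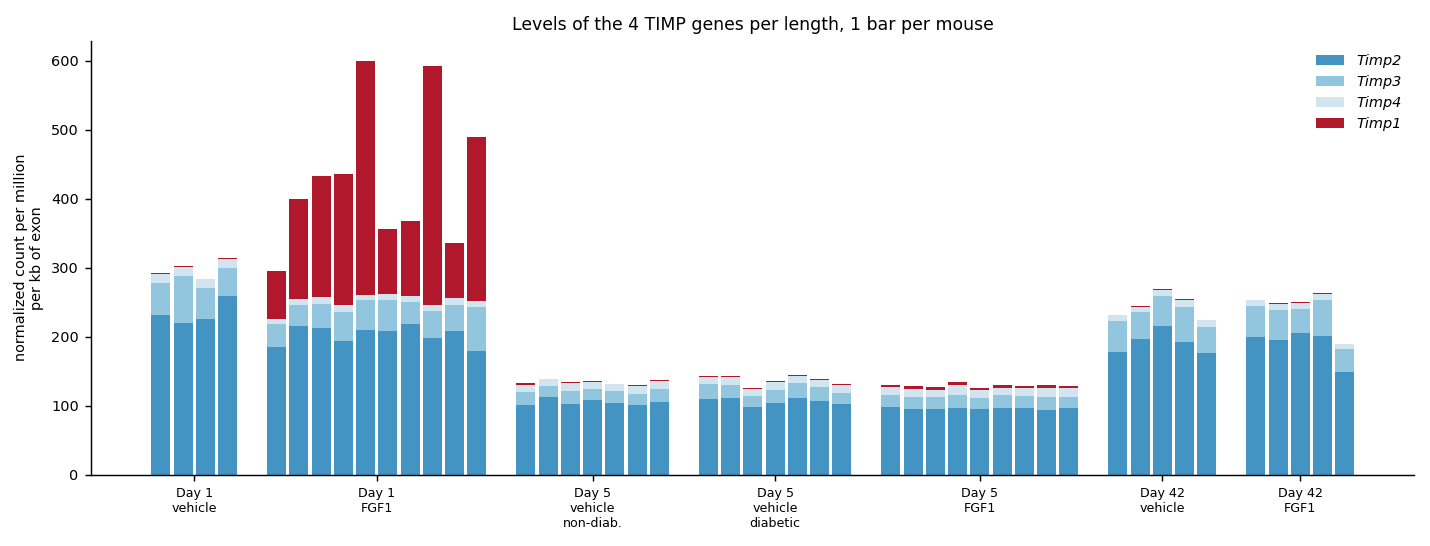
Summed levels of the 4 TIMP genes in each of the 47 mice, 1 bar per mouse grouped by day and treatment, in normalized counts (CPM) per kb of exon. Timp1 (red) fills between 23.3% and 58.4% of the bar in FGF1-treated mice of Day 1 and at most 3.97% in every other group.

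Timp1, which inhibits most matrix metalloproteinases, was barely detected in vehicle-treated mice of Day 1, at 0.698, 0.791, 0.934 and 0.957 normalized counts (28 to 35 raw counts per library). In the 10 FGF1-treated mice of Day 1 it ran from 61.1 through a median of 142.5 to 306.9 normalized counts. All 10 FGF1-treated mice lay above all 4 vehicle-treated mice, and they differed among themselves by 5.02-fold from the lowest (replicate 17, the shallowest library, with 75 raw counts) to the highest (replicate 24). The fitted log2 fold change was 7.57 (SE 0.40), a 190-fold difference and the highest of all 14221 genes, which is the value by which the genes were chosen. With quantile normalization it was 6.30.

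The other inhibitors did not follow Timp1 on Day 1. Timp2, which also takes part in the activation of pro-Mmp2 by Mmp14, ran from 697.9 through a median of 813.5 to 850.2 normalized counts with FGF1, and with vehicle from 853.8 through 892.3 to 1007. All FGF1-treated mice lay below all vehicle-treated mice, by a log2 fold change of -0.20 (SE 0.06). Over the alternatives this fold change ran from -0.25 to -0.10. Timp3, which binds to the matrix and also inhibits ADAM and ADAMTS proteases, ran from 249.4 to 520.3 normalized counts with FGF1 (median 315.1) and from 330.2 to 565.2 with vehicle (median 370.9). Its groups overlapped, and its log2 fold change was -0.32 (SE 0.13), or -0.12 without vehicle replicate 28. Timp4, an inhibitor found mainly in brain, heart and fat, ran from 42.6 through a median of 51.6 to 57.0 normalized counts with FGF1, and stood at 73.8, 75.6, 76.4 and 79.7 with vehicle. The 2 groups did not overlap, and the log2 fold change of -0.57 (SE 0.07) was the only one of an inhibitor below -0.5.

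Of the proteases, Adamts1, which cuts the lecticans aggrecan and versican, had the highest fold change on Day 1. It ran from 30 through a median of 74.9 to 94.6 normalized counts in FGF1-treated mice and stood at 10.0, 12.0, 12.9 and 15.3 in vehicle-treated mice. The groups did not overlap, and the log2 fold change was 2.55 (SE 0.19). Adamts4, another protease of lecticans, ran from 16.6 to 73.6 normalized counts with FGF1 (median 49.9) and stood at 10.8, 14.9, 15.0 and 16.8 with vehicle, so that 9 of 10 FGF1-treated mice lay above all vehicle-treated mice. Its log2 fold change was 1.77 (SE 0.20). FGF1 replicate 22 was the lowest of its group for both Adamts1 and Adamts4, and also for Adamts9, whereas its Timp1 level of 83.8 lay within the range of the others.

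Mmp14, a membrane-bound enzyme that cleaves collagen and activates pro-Mmp2, ran from 31.0 through 45.2 to 63.1 normalized counts in FGF1-treated mice and stood at 17.02, 20.7, 21.2 and 30.2 in vehicle-treated mice of Day 1. The groups did not overlap, and the log2 fold change was 1.05 (SE 0.14). Mmp2, a gelatinase, ran from 4.37 to 8.57 normalized counts with FGF1 (median 4.85) and from 4.43 to 4.97 with vehicle (median 4.81). Its groups overlapped and the log2 fold change was 0.23 (SE 0.17). Adamts9, a protease of aggrecan and versican, ran from 7.30 to 12.7 normalized counts with FGF1 (median 9.97) and from 5.66 to 8.81 with vehicle (median 7.36), with a log2 fold change of 0.46 (SE 0.13).

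In all, Timp1, Adamts1, Adamts4 and Mmp14 lay above and Timp4 lay below the thresholds used for calls (adjusted p under 0.05 and absolute log2 fold change above 0.5) on Day 1. These 5 of 9 genes stand beside 19.5% of all genes past the thresholds in this comparison, 11.5% higher and 8.05% lower, and nothing is read from the count because the genes were chosen on this day. The count was 6 of 9 without vehicle replicate 28, where 2335 of all genes were past the thresholds. It was also 6 of 9 with limma and sample quality weights, where 2498 were. By adjusted p alone, 45.0% of all genes passed. On this day 7.56% of all genes were higher and 6.81% lower in every FGF1-treated mouse than in every vehicle-treated mouse. The median log2 fold change was 0.46 over the 9 genes and 0.01 over all genes.

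**Figure D2:**
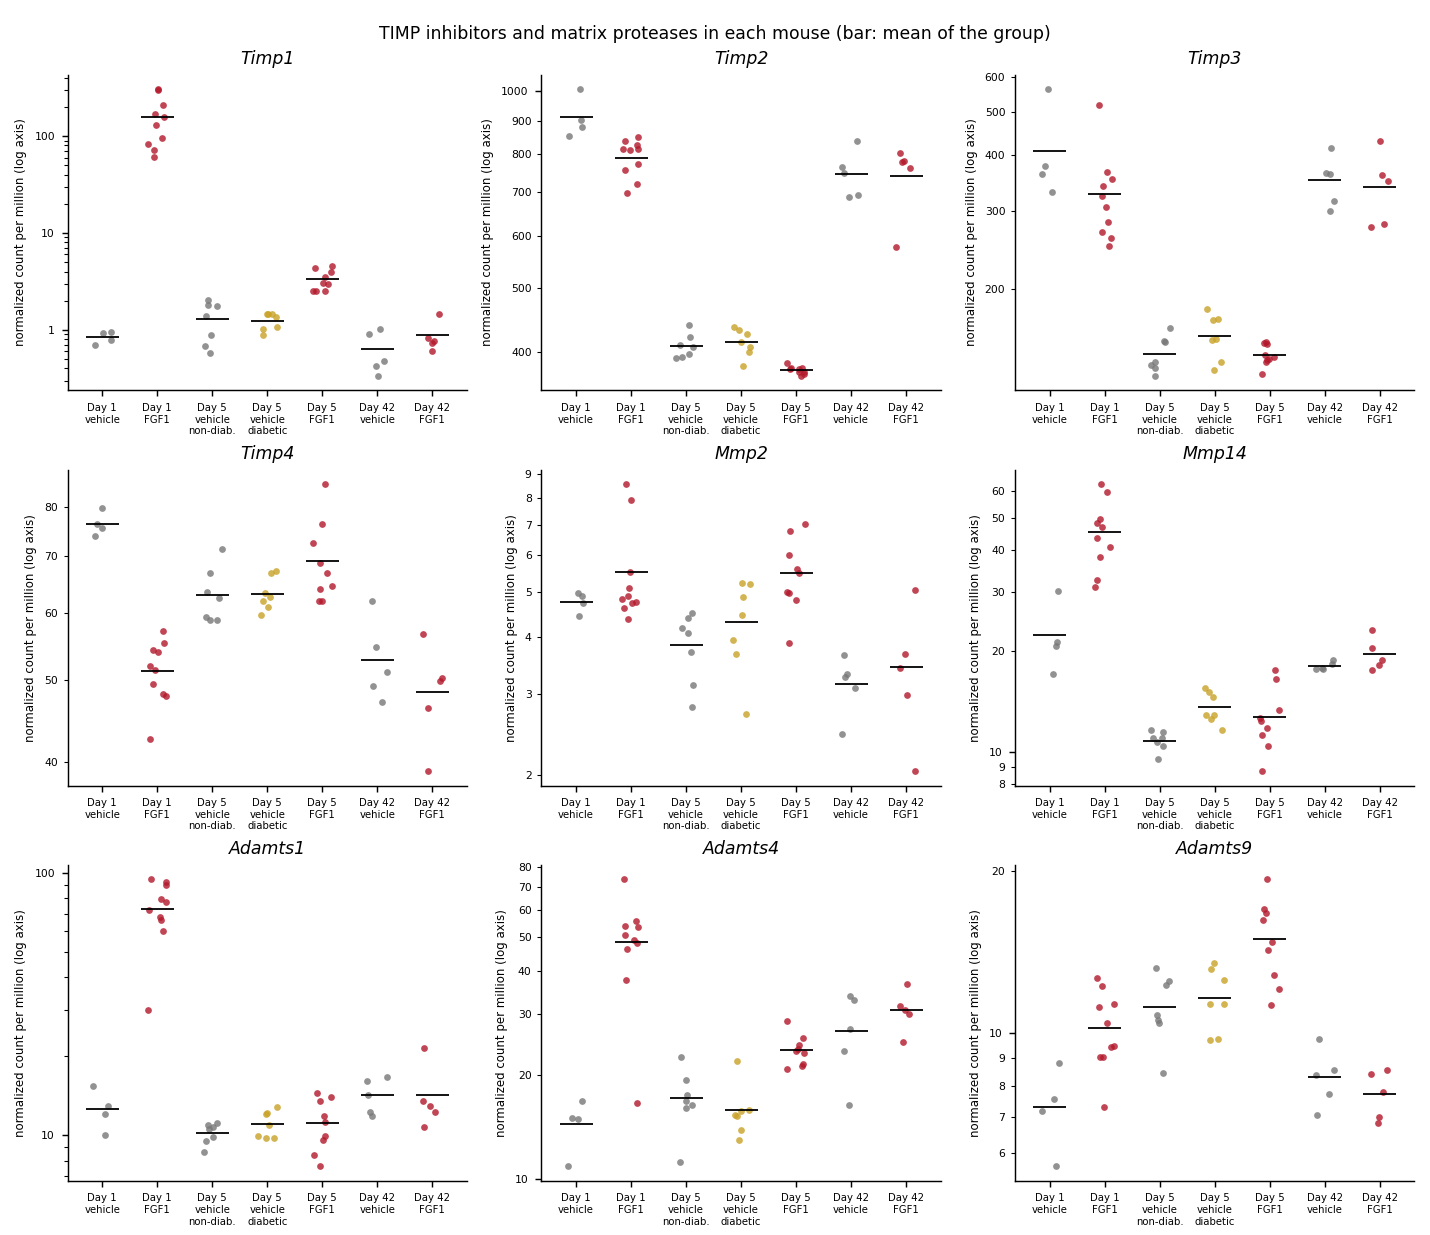
Normalized counts (CPM, log axis) of the 9 genes in each of 47 mice, by day and treatment, with 1 point per mouse and a bar at the mean of the group. On Day 1, every FGF1-treated mouse lies above every vehicle-treated mouse for Timp1, Mmp14 and Adamts1, as for 7.56% of all genes. For Timp2 and Timp4 every FGF1-treated mouse lies below, as for 6.81% of all genes. On Day 5, Timp1 separates FGF1-treated mice from both vehicle groups and Timp2 from the group labelled non-diabetic. All 9 genes overlap between the groups of Day 42.

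The Day 5 mice were not used to choose the genes, and here FGF1 was compared with each vehicle group by edgeR's quasi-likelihood test with Benjamini-Hochberg adjustment over all genes. Both comparisons share the same 9 FGF1-treated mice. Timp1 was the 1 gene of the 9 that rose against the vehicle group labelled non-diabetic, where 1.54% of all genes passed. Against the vehicle group labelled diabetic, where 2.85% passed, Timp1 and Adamts4 rose. None of the 9 fell past the thresholds in either comparison. Of all genes, 186 rose and 33 fell in the first comparison and 335 rose and 71 fell in the second, and with quantile normalization and limma these numbers were 253 and 116, and 368 and 188, with the same members called. The median log2 fold change of the 9 genes was 0.22 and 0.13, beside -0.01 over all genes in both.

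On Day 5, Timp1 ran from 2.50 through a median of 3.06 to 4.55 normalized counts in FGF1-treated mice (23 to 123 raw counts). It ran from 0.580 through 1.39 to 2.03 in vehicle-treated mice labelled non-diabetic (5 to 18 raw counts) and from 0.884 through 1.37 to 1.46 in those labelled diabetic (10 to 16 raw counts). All 9 FGF1-treated mice lay above all 14 vehicle-treated mice, which 2.38% and 3.63% of all genes did for the non-diabetic-labelled and the diabetic-labelled group, respectively. Timp1 rose by a log2 fold change of 1.34 (SE 0.41, adjusted p = 0.0454) against the first group and of 1.42 (SE 0.40, adjusted p = 0.0166) against the second. Over the alternatives, the adjusted p of the first comparison ran from 3.14e-05 to 0.0916, and it missed the threshold without FGF1 replicates US-1642330 and US-1642331, the 2 deepest libraries, at a log2 fold change of 1.35. The exact two-sided permutation test over mice gave p = 0.000175 against each group, the smallest it can give. Both belong to the 36 such tests over the 9 genes and 4 comparisons, whose p-values are not adjusted, and they share the same 9 FGF1-treated mice.

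Adamts4 ran from 20.8 through 23.5 to 28.6 normalized counts in FGF1-treated mice of Day 5, from 11.2 through 16.8 to 22.5 in vehicle-treated mice labelled non-diabetic and from 12.9 through 15.3 to 21.96 in those labelled diabetic. Of the 9 FGF1-treated mice, 6 lay above all mice of the first vehicle group and 6 above all of the second. Its log2 fold change was 0.46 (SE 0.17, adjusted p = 0.122 by edgeR) against the first group and 0.58 (SE 0.17, adjusted p = 0.0236) against the second, where the call was lost without the 2 deepest FGF1 libraries at a fold change that was still 0.58 (adjusted p = 0.0528). The exact permutation test gave p = 0.000699 for both.

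Adamts9 ran from 11.3 through 14.8 to 19.3 normalized counts with FGF1, from 8.45 through 10.8 to 13.2 in the vehicle group labelled non-diabetic and from 9.70 through 11.3 to 13.5 in that labelled diabetic. Its log2 fold change of 0.42 (SE 0.11) against the first group had an edgeR adjusted p of 0.0193, and that of 0.36 (SE 0.11) against the second an adjusted p of 0.0306. Both were under the threshold of 0.5 on the fold change and so were not called. The exact permutation test gave p = 0.00472 and p = 0.00927. By adjusted p alone, 4.65% and 9.21% of all genes passed.

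Mmp2 ran from 3.88 through 5.502 to 7.02 normalized counts in FGF1-treated mice of Day 5, from 2.81 through 4.06 to 4.51 in vehicle-treated mice labelled non-diabetic and from 2.71 through 4.46 to 5.23 in those labelled diabetic. Of the 9 FGF1-treated mice, 8 lay above all mice of the first vehicle group. The log2 fold change against it was 0.51 (SE 0.17, adjusted p = 0.0725 by edgeR), and it passed the thresholds at 0.61 (adjusted p = 0.0395) without the 2 deepest FGF1 libraries. Against the second group it was 0.34 (SE 0.16, adjusted p = 0.213). The exact permutation test, not adjusted, gave p = 0.00157 and p = 0.0274.

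Timp2 differed by little on Day 5 but with a narrow spread. It ran from 367.3 through 375.9 to 384.5 normalized counts with FGF1 and from 391.2 through 406.1 to 438.8 in vehicle-treated mice labelled non-diabetic, so that all 9 FGF1-treated mice lay below all 7 of these, as was so for 1.55% of all genes. Against the 7 mice labelled diabetic, with a range from 380.3 to 435.7, 8 of 9 lay below. The log2 fold changes were -0.12 (SE 0.05, adjusted p = 0.191 by edgeR) and -0.14 (SE 0.05, adjusted p = 0.0736), and the exact permutation test gave p = 0.000175 and p = 0.00035. In a fit of the Day 5 libraries alone, which estimates the spread from that day, the first was -0.11 with an adjusted p of 0.00418, still under the threshold on the fold change.

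The remaining 4 genes did not pass on Day 5. Timp4 had a log2 fold change of 0.13 (SE 0.07) against both vehicle groups, with FGF1-treated mice between 61.9 and 85.1 normalized counts. Timp3 had -0.01 (SE 0.11) and -0.14 (SE 0.11), with FGF1-treated mice between 128.3 and 151.3 normalized counts. Adamts1 ran from 7.60 to 14.5 normalized counts with FGF1, a log2 fold change of 0.12 (SE 0.17) against the group labelled non-diabetic, from 8.65 to 11.1, and of 0.01 (SE 0.17) against the group labelled diabetic, from 9.76 to 12.8. Mmp14 had 0.22 (SE 0.13) and -0.11 (SE 0.13). For Adamts1 and Mmp14, the groups that had not overlapped on Day 1 overlapped on Day 5.

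**Figure D3:**
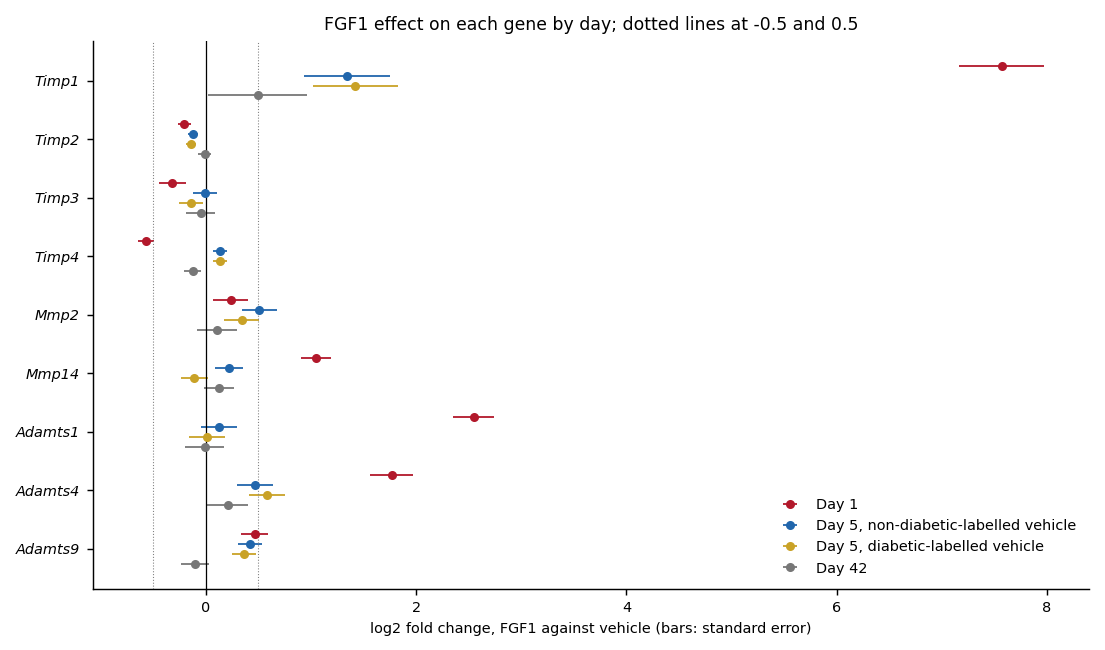
Fitted log2 fold change of FGF1 against vehicle for the 9 genes, with standard errors as bars, on Day 1, on Day 5 against each of 2 vehicle groups, and on Day 42. Timp1 lies at 7.57, 1.34, 1.42 and 0.49, and on Day 42 all 9 genes lie within 0.50 of 0.

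The difference of the FGF1 effect between Day 5 and Day 1 is given as a description, since it uses Day 1. It was -6.23 (SE 0.65) for Timp1 on the log2 scale, -2.42 (SE 0.25) for Adamts1, -1.30 (SE 0.26) for Adamts4, -0.83 (SE 0.19) for Mmp14 and 0.71 (SE 0.10) for Timp4. These 5 of 9 genes were past the thresholds, beside 15.8% of all genes. It was -0.04 (SE 0.17) for Adamts9, whose fold change was much the same on both days.

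To see whether the label diabetic went with a difference, the vehicle-treated mice of Day 5 with that label were set against those without it. None of the 9 genes and none of the 14221 passed (0.0%) by edgeR, while 193 genes had an unadjusted p under 0.05. DESeq2 called none of the 9 genes either. The largest difference among the 9 was that of Mmp14, which ran from 11.6 through 12.9 to 15.5 normalized counts in the group labelled diabetic and from 9.51 through 11.0 to 11.6 in the group labelled non-diabetic. All 7 mice of the first lay above all 7 of the second, as was so for 0.0633% of all genes, although the nearest mice of both groups were at 11.63 and 11.60. The log2 fold change was 0.33 (SE 0.14, adjusted p = 1 by edgeR), and the exact permutation test gave p = 0.000583, the smallest it can give.

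On Day 42, none of the 9 genes passed, and none of the 14221 (0.0%) by edgeR, with 776 at an unadjusted p under 0.05. Over all genes this count changed when a mouse was left out, with 31 genes called (25 higher and 6 lower) without FGF1 replicate 7 and 1 without FGF1 replicate 8, none of them among the 9. None of the 9 was called by DESeq2 or limma. Timp1 stood at 0.611, 0.727, 0.765, 0.830 and 1.44 normalized counts in FGF1-treated mice and at 0.334, 0.420, 0.480, 0.902 and 1.03 in vehicle-treated mice. The groups overlapped, only FGF1 replicate 9 lay above all vehicle-treated mice, and the log2 fold change was 0.49 (SE 0.47, adjusted p = 1). It was 0.18 without FGF1 replicate 9, 0.32 when vehicle replicate 12 was left out and 0.73 when vehicle replicate 15 was, with the other mice giving values between these. These levels rest on 10 to 63 raw counts per library. Adamts4 stood at 24.8, 30.1, 30.8, 31.7 and 36.7 normalized counts with FGF1 and at 16.4, 23.4, 27.1, 33.0 and 33.7 with vehicle, a log2 fold change of 0.21 (SE 0.20). Without vehicle replicate 16 it was 0.07, and without FGF1 replicate 10 it was 0.14. The other 7 genes had log2 fold changes between -0.12 (Timp4) and 0.12 (Mmp14), which were -0.06 without FGF1 replicate 11 and 0.05 without FGF1 replicate 9, respectively. FGF1 replicate 11 stood apart from its group in markers of the choroid plexus, whose 4 genes in the table summed to 201 normalized counts there, to at most 38.2 in the other FGF1-treated mice of Day 42 and to between 32.1 and 45.4 with vehicle. Without this mouse the Day 42 log2 fold changes were 0.57 for Timp1, 0.06 for Timp2, -0.06 for Mmp2 and -0.20 for Adamts1, and none of the 9 genes passed. With 5 mice against 5 the exact permutation test can go down to p = 0.00794, and the smallest value among the 9 genes was p = 0.183, for Mmp14.

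The FGF1 effect of Day 42 was also set against that of Day 5, relative to the vehicle groups labelled non-diabetic, as a difference within the same edgeR fit. None of the 9 genes passed, where 0.717% of all genes did. The difference was -0.85 (SE 0.64, adjusted p = 0.774) for Timp1 and -0.53 (SE 0.18, adjusted p = 0.177) for Adamts9, the 2 with the lowest values. For Timp1, the Day 5 call and the lack of one on Day 42 are therefore not shown to differ.

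Levels also differed between days in mice given vehicle, for which day and prep code cannot be told apart. Timp2 averaged 911.4 normalized counts (SD 67.1, n = 4) in vehicle-treated mice of Day 1, 408.2 (SD 17.2, n = 7) in those of Day 5 labelled non-diabetic and 747.2 (SD 61.1, n = 5) in those of Day 42. Timp3 averaged 409.3 (SD 105.9, n = 4), 142.5 (SD 13.1, n = 7) and 351.8 (SD 46.4, n = 5), respectively. For both genes, no mouse of Day 5 reached the lowest mouse of the other days, in any group. Timp4 moved less, at 76.4 (SD 2.46), 63.0 (SD 4.73) and 52.8 (SD 5.80). Effects of FGF1 are therefore given against vehicle of the same day.

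The other genes of the pathway were taken from 8 lists, of which 55 of 73 genes were in the count table. On Day 1, 12 of these 55 genes rose and 8 fell past the thresholds, beside 11.5% and 8.05% of all genes. Among the plasminogen activators and their inhibitors, 2 of 4 rose and 1 fell. Plau, urokinase, which makes plasmin from plasminogen, rose from 1.19 ± 0.250 normalized counts (SD, n = 4) to 20.7 ± 15.7 (SD, n = 10), a log2 fold change of 4.18 (SE 0.45, adjusted p = 1.48e-10). Plat, tissue plasminogen activator, rose from 80.8 ± 7.94 to 216.5 ± 40.3 (log2 fold change 1.43, SE 0.11).

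Of the 9 other matrix metalloproteinases in the table, 2 rose on Day 1 and none fell. Mmp19 rose from 2.30 ± 0.433 normalized counts (SD, n = 4) to 24.1 ± 8.90 (SD, n = 10), a log2 fold change of 3.42 (SE 0.29, adjusted p = 1.35e-13), and Mmp28 rose by 0.62 (SE 0.19) on the log2 scale. Mmp9, a gelatinase often measured in inflamed brain, was at 2.36 ± 0.724 with FGF1 and 2.60 ± 0.244 with vehicle, with a log2 fold change of -0.10 (SE 0.19, adjusted p = 0.678). Of 13 other ADAMTS proteases, 2 rose and 5 fell. Adamts5, an aggrecanase, rose by 0.76 (SE 0.20) on the log2 scale, whereas Adamts20 fell by 1.41 (SE 0.12), Adamts16 fell by 0.67 (SE 0.10) and Adamts3, which processes procollagen, fell by 0.65 (SE 0.18). Both directions were thus found within the ADAMTS family.

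Among 8 other regulators of matrix proteases, 2 rose and 1 fell on Day 1. A2m, a broad inhibitor that traps proteases, rose by 2.03 (SE 0.16) and Reck, a membrane-anchored inhibitor of Mmp2 and Mmp14, fell by 0.62 (SE 0.10), both on the log2 scale. Of 6 ADAMTS-like proteins 1 rose, and of 8 catalytic ADAM proteases 2 rose, with none falling. Of the 4 lecticans, Ncan rose from 69.3 ± 7.79 normalized counts (SD, n = 4) to 148.5 ± 7.15 (SD, n = 10), a log2 fold change of 1.10 (SE 0.11, adjusted p = 2.22e-11), and Bcan fell by 0.57 (SE 0.13). Acan had 0.27 (SE 0.14, adjusted p = 0.117) and Vcan 0.26 (SE 0.12, adjusted p = 0.0621), which did not pass. The genes that host an inhibitor did not pass either. Their log2 fold changes were -0.14 (SE 0.10) for Syn1, which holds Timp1, -0.09 (SE 0.06) for Syn2, which holds Timp4, and 0.01 (SE 0.17) for Syn3, which holds Timp3.

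On Day 5, 2 of the 55 genes rose against vehicle labelled non-diabetic and none fell, beside 1.31% and 0.232% of all genes. A2m rose from 15.3 ± 4.19 normalized counts (SD, n = 7) to 59.7 ± 10.4 (SD, n = 9), a log2 fold change of 1.97 (SE 0.14, adjusted p = 3.58e-14), and Plat rose by 0.62 (SE 0.09, adjusted p = 9.21e-06). For A2m the fold change of Day 5 was close to that of Day 1, with a difference of -0.07 (SE 0.20, adjusted p = 0.837), whereas Plau had 0.26 (SE 0.46) on Day 5. Against vehicle labelled diabetic, 4 of 55 rose and none fell, beside 2.36% and 0.499% of all genes, and they included A2m at 1.73 (SE 0.14), Mmp28 at 0.64 (SE 0.19) and Papln, an ADAMTS-like protein, at 0.59 (SE 0.19). Plat had 0.50 (SE 0.09, adjusted p = 0.000198) there and was not called. On Day 42 none of the 55 passed, by edgeR or by DESeq2. The effect was smaller on Day 42 than on Day 5 for A2m, by 2.33 (SE 0.21, adjusted p = 1.78e-10), and for Plat, by 0.73 (SE 0.15, adjusted p = 0.00492).

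**Figure D4:**
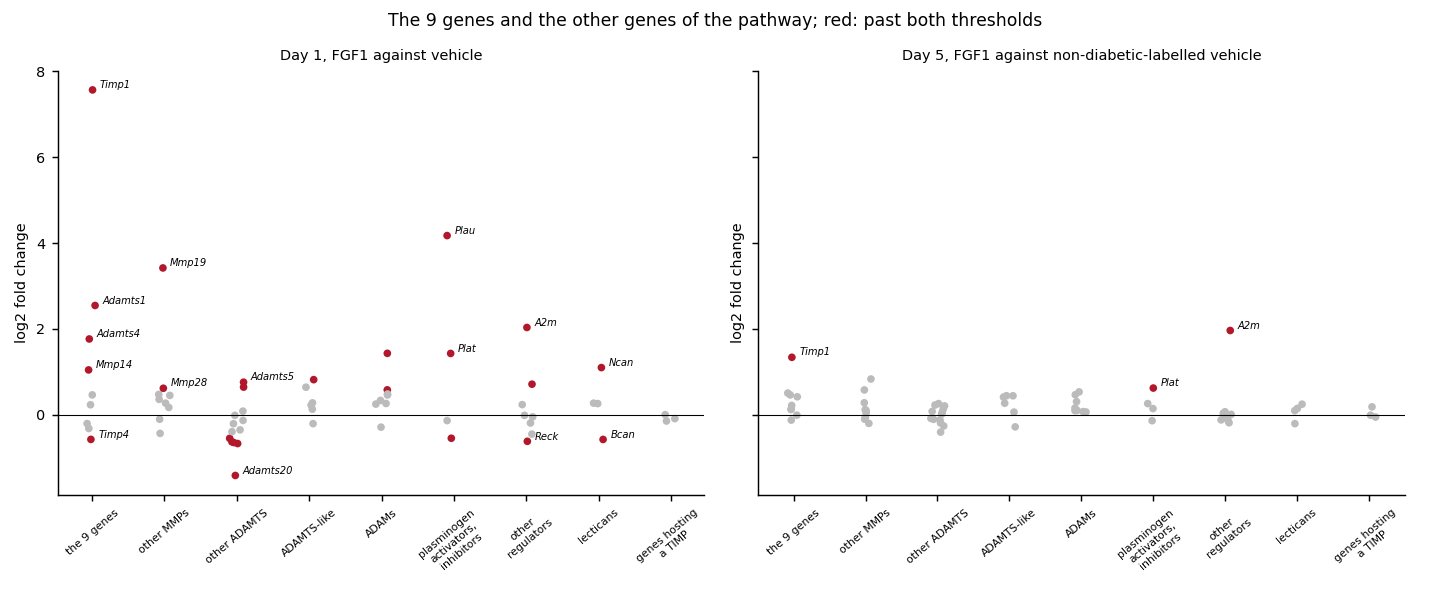
Log2 fold change of FGF1 against vehicle on Day 1 (left) and on Day 5 against vehicle labelled non-diabetic (right) for the 9 genes and 8 lists of other pathway genes, 1 point per gene, with genes past both thresholds in red. On Day 1 the highest points beside Timp1 at 7.57 are Plau at 4.18 and Mmp19 at 3.42, and on Day 5 those past the thresholds are Timp1, A2m and Plat.

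The genes whose pattern was most like that of Timp1 were sought by Pearson's r of log2(normalized count + 0.5) over the 47 libraries, which differ in day, depth and prep code, so that these values also hold the differences in level between days. The 5 with the highest r were Flnc (0.977), S1pr3 (0.976), Vim (0.974), Serpina3n (0.973) and Socs3 (0.973), whose log2 fold changes on Day 1 lay between 3.31 (Vim) and 4.50 (Socs3). Of the other 8 genes described here, Adamts1 had an r of 0.92, Mmp14 of 0.80, Adamts4 of 0.72 and Mmp2 of 0.49. Timp2 had 0.35, Timp3 0.28, Adamts9 0.13 and Timp4 -0.36. Timp1 ran from 61.1 to 306.9 normalized counts in FGF1-treated mice of Day 1 and reached at most 4.55 in any other group. These r values therefore also hold the Day 1 difference by which the genes were chosen and are no separate result. The mean of each group was then subtracted, so that only the spread among mice of a group remained. The 5 highest were then Ptges (0.79), Prg4 (0.78), Pla1a (0.77), Igfbp3 (0.76) and Cdh5 (0.75). Of the other 8 genes, Mmp14 had 0.47, Adamts1 0.43, Timp3 0.31, Adamts4 0.30, Adamts9 0.23, Mmp2 0.10, Timp4 0.07 and Timp2 0.05. These values are descriptions of the 47 libraries.

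Marker genes of several cell types were examined in the same comparisons, and their counts on Day 1 stand beside 11.5% of all genes higher and 8.05% lower. On Day 1, 3 of 8 meningeal fibroblast markers were higher (Dcn, Lum and Col3a1) and 3 were lower (Slc6a13, Igf2 and Ogn), and their summed level ran from 65.2 to 435 normalized counts with FGF1 and from 110 to 218 with vehicle. On Day 5, 3 of 8 were higher against vehicle labelled non-diabetic and 1 of 8 against vehicle labelled diabetic, with all 8 fold changes positive in both, and the sum ran from 98.4 to 373 with FGF1, from 56.9 to 190.0 and from 73.7 to 200.0. Of 8 endothelial markers, 2 were higher on Day 1 (Flt1 and Cdh5) and none on Day 5, and their sum ran from 214 to 274 with FGF1 and from 184 to 266 with vehicle on Day 1. Of 8 astrocyte markers, 2 were higher (Gfap and Sox9) and 1 lower (Gja1) on Day 1 and 2 were higher on Day 5 in both comparisons. Their sum on Day 1 ran from 4160 to 4990 with FGF1 and from 3370 to 4130 with vehicle, and it did not stand for the whole list, since Gfap averaged 1787 normalized counts with FGF1 and 255.5 with vehicle while the abundant Slc1a2 averaged 1189 and 1534, Slc1a3 884.2 and 1150, and Gja1 163.3 and 278.6. Of 8 microglial markers, 4 were higher and 1 lower on Day 1, and on Day 5 none passed against vehicle labelled non-diabetic and 4 were higher against vehicle labelled diabetic. No marker of these lists was at 0 in all libraries of a group. The part of these cell types in the levels of Timp1 and the proteases was not tested.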

How the data were processed

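Hypothalamic mRNA of 47 mice was sequenced with 1 strand-specific library per mouse. Per the labels, the authors' processing used STAR and DESeq2 and names the build GRCh38, which is a human build, whereas the genes are mouse genes, so no coordinate was taken from the deposited table. The authors deposited counts per gene in whole numbers, without normalization, and the counting program is not given in the sources used here. The table holds 14221 genes and 0 pairs of libraries were identical.

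Library factors were computed by TMM and a single edgeR 4.0.16 model (R 4.3.3) held all 47 libraries, with a mean per group (7 groups). Contrasts within a day were tested by the quasi-likelihood F test and adjusted by Benjamini-Hochberg over all genes. A gene passed at an adjusted p under 0.05 if its log2 fold change was also beyond 0.5 in size. filterByExpr removed 0 genes. Single genes were also compared over mice by two-sided exact permutation tests on log2(normalized count + 0.5) with scipy. The edgeR step was tested on simulated data. P-values measure the spread between mice, each with 1 library, and total counts from 1243280 to 47082403 set the counting precision.

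The 9 genes, the pathway lists and the marker lists were chosen with earlier results of these data known. Besides the 9 genes, the text names for each comparison up to 3 pathway genes per direction with the largest change among those past the thresholds and with a mean of at least 1 normalized count in 1 group, some genes regardless of their change (Mmp9, Adamts5, Plat, Reck, the lecticans and the synapsins) and the 5 genes most like Timp1. A gene named in 1 comparison is also given in others. Marker genes are named beside some of their counts and were picked after their values were seen.

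Exon lengths and loci were taken from GENCODE M21 and promoters from RefSeq, both on GRCm38. Alternatives tried were limma 3.58.1 after quantile normalization or with sample quality weights, DESeq2 1.42.0, edgeR with the factors of DESeq2, no filter, at least 10 counts in every library, adjusted p alone, each day alone, merged vehicle groups of Day 5, a pseudocount of 1 in the permutation tests, and fits without the libraries of unusual depth, each mouse of Day 42 or each vehicle-treated mouse of Day 1. The single-cell data and the RT-PCR were not analysed here, and some items are not reported here.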

Additional observations from a re-analysis of the deposited data

Results flagged for a closer look

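Each of the 9 genes was examined in each of the 7 groups for a mouse far from the rest by Dixon's criterion. Of 63 such sets 6 held one, where chance gives about 1 in 20. Timp1 stood at 1.44 normalized counts in FGF1 replicate 9 of Day 42, with the next mouse at 0.830. Timp2 stood at 577.6 in FGF1 replicate 11 of Day 42, below the next mouse at 761.7, and Adamts1 stood at 21.4 in that same mouse, above the next at 13.5. Timp3 stood at 520.3 in FGF1 replicate 26 of Day 1, above the next at 366.7. Adamts1 stood at 30 in FGF1 replicate 22 of Day 1, below the next at 60.3. Adamts4 stood at 21.96 in vehicle replicate US-1642297 of Day 5, labelled diabetic, above the next at 15.8.

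The FGF1 effect differed between days by edgeR's quasi-likelihood test for several other genes of the pathway. Between Day 5 and Day 42 it became smaller for the protease inhibitor A2m, by -2.33 on the log2 scale (adjusted p = 1.78e-10), and for Plat, by -0.73 (adjusted p = 0.00492). Between Day 1 and Day 5, the difference was -3.91 for Plau (adjusted p = 4.03e-06), -2.59 for Mmp19 (adjusted p = 6.93e-06), -1.31 for Ncan (adjusted p = 5.24e-10) and -0.81 for Plat (adjusted p = 1.95e-05). In the other direction, it was 1.29 for Adamts20 (adjusted p = 6.44e-08), 0.86 for Adamts12 (adjusted p = 0.0364), 0.72 for Bcan (adjusted p = 0.00142) and 0.59 for Adamts16 (adjusted p = 0.00145). Day and prep code cannot be told apart in these differences.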

How the results depend on the processing

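No paired analysis was possible because the groups compared share no replicate numbers. By adjusted p alone, 8 of the 9 genes in place of 5 were past the threshold on Day 1, and 2 in place of 1 passed on Day 5 against vehicle labelled non-diabetic (Timp1 and Adamts9). By the same rule 31 in place of 20 other pathway genes passed on Day 1, and 4 in place of 2 and 7 in place of 4 in the Day 5 comparisons. Of all genes, 45.0% passed by this rule on Day 1. On Day 5, 4.65% passed against vehicle labelled non-diabetic and 9.21% against vehicle labelled diabetic. Nothing is read from the Day 1 count of the 9 genes, which were chosen on that day. With at least 10 counts required in every library, which removed Timp1 and Mmp2 and left 10973 genes, 0 of the other 7 of the 9 genes passed on Day 5 against vehicle labelled non-diabetic and 1 against vehicle labelled diabetic. With the vehicle groups of Day 5 merged, 2 passed, Timp1 and Adamts4. Without the 2 deepest FGF1 libraries of Day 5, 1 passed against vehicle labelled diabetic, Timp1, and the 1 that passed against vehicle labelled non-diabetic was Mmp2 in place of Timp1.

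Over all genes, the number called on Day 1 was 2776, or 1582 with at least 10 counts in every library and 6396 by adjusted p alone. On Day 5 it was 219 against vehicle labelled non-diabetic, with a range over the alternatives from 140 to 661, and 406 against vehicle labelled diabetic, with a range from 219 to 1310. For the change from Day 5 to Day 42 it was 102, or 65 without the 2 deepest FGF1 libraries, 148 with merged vehicle groups, and it ran from 56 (without FGF1 replicate 11) to 149 (without FGF1 replicate 9) when each mouse of Day 42 was left out in turn. On Day 42 itself it was 0, or 31 without FGF1 replicate 7 and 1 without FGF1 replicate 8.

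All changes of direction were in differences near 0 that were not called, and their cause was not tested. On Day 5 against vehicle labelled non-diabetic, Timp3 had 0.0124 with at least 10 counts, 0.006 with quantile normalization, 0.001 with quality weights and 0.0012 in the libraries of that day. Against vehicle labelled diabetic, Mmp14 had 0.0421 with merged vehicle groups and Adamts1 had -0.0362 with quantile normalization. Between the vehicle groups, Timp1 had 0.0299 with quality weights and -0.005 mouse by mouse with a pseudocount of 1, and Timp4 had -0.0009 with at least 10 counts and -0.0023 with quality weights. On Day 42, Timp2 had 0.0029 with quality weights, and Adamts1 had 0.0022 with the factors of DESeq2 in edgeR and 0.0072 in DESeq2. The change from Day 5 to Day 42 was 0.0252 for Timp3 and 0.0803 for Mmp14 with merged vehicle groups. When each mouse of Day 42 was left out in turn, the Day 42 fold change ran from -0.0437 to 0.064 for Timp2, from -0.1516 to 0.0175 for Timp3, from -0.056 to 0.2523 for Mmp2, from -0.1969 to 0.0665 for Adamts1, from 0.1797 to 0.7331 for Timp1, from 0.0746 to 0.3038 for Adamts4, from -0.185 to -0.0585 for Timp4, from 0.053 to 0.159 for Mmp14 and from -0.1562 to -0.039 for Adamts9. Mouse by mouse, the ranges of the first 4 of these genes were -0.051 to 0.067, -0.152 to 0.009, -0.068 to 0.214 and -0.185 to 0.057. The change from Day 5 to Day 42 for Timp3 ran from -0.1442 to 0.0248.

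Timp1 had 5 to 37 raw counts in each vehicle library.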

Other observations

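Markers of other cell types were also compared. On Day 1 of FGF1 treatment, 7 of 8 oligodendrocyte markers, 3 of 8 oligodendrocyte precursor markers and 3 of 8 ependymal markers were lower and none was higher by edgeR, and on Day 5 against vehicle labelled non-diabetic 3 of 8 oligodendrocyte and 4 of 8 precursor markers were higher and none was lower. Of the 4 perivascular macrophage markers in the table, 3 were higher on Day 1, and their sum ran from 10.6 to 48.8 normalized counts with FGF1 and from 8.75 to 22.5 with vehicle. Both blood leukocyte markers in the table, of 8 listed, were higher on Day 1, and 1 was higher on Day 5 in each comparison. Of 8 mural markers 2 were higher and 2 lower on Day 1, of 7 tanycyte markers 1 was higher and 1 lower, of 10 hypothalamic markers 2 were higher and 1 lower, and of 4 choroid plexus markers 1 was lower. None of the 8 neuronal and 4 red blood cell markers passed on any day. On Day 42 no marker of any of the 15 lists passed, although the summed choroid plexus markers stood at 201 normalized counts in FGF1 replicate 11 and at most at 45.4 in the other mice of that day. The part of these cell types in the results on the proteases and their inhibitors was not tested.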
